A study of Mus musculus with 19 samples.

Results

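The cornea and the conjunctiva meet at the rim of the eye and share the tear film. Their messenger RNA was compared here in 9 of the 19 libraries of the study, the 5 cornea and 4 conjunctiva libraries of mice fed ad libitum (AL). The 9 were taken by their labels, as all cornea and all conjunctiva libraries whose title carries AL-50W. The labels give the strain as C57BL/6, the feeding as ad libitum and, in the title, 6M for every mouse, and they name no transgene, drug or other agent. The study's methods have the diets begin at about 6M and run for 4 months. Thus 6M is not the age at collection, which by the methods came about 4 months after the start of the diets. The W number in the title was not used to set that age. The methods add that the mice were female C57BL/6J and that 2 cohorts were used. The labels do not say which cohort a library came from. The remaining 10 libraries, 5 of each tissue, came from mice under calorie restriction (CR) and enter below only where the tissue difference was compared between diets. By the methods, corneal cells were scraped off the surface, whereas the conjunctiva was cut out whole. A cornea library is thus mostly epithelium and a conjunctiva library a piece of tissue with its stroma. Tissue and way of collection cannot be told apart in this design. Fewer cells of a type and less RNA per cell cannot be told apart either.

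The corneal epithelium is a clear, stratified, non-keratinized sheet with no vessels beneath it, renewed from stem cells at the limbus. Its cells are packed with soluble enzymes such as ALDH3A1 and transketolase, which are called corneal crystallins because of their abundance, and with the keratin pair K12 and its type II partner. The conjunctival epithelium is a mucosa. It holds goblet cells, which secrete the gel-forming mucin MUC5AC, and cells with simple-epithelium keratins, and it lies on a vascular stroma with fibroblasts, immune cells and nerves. PAX6 directs the development of both epithelia.

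*Krt12* and *Krt13*, the keratins commonly used to tell the corneal from the conjunctival epithelium, served as the check of the labels. Levels are in RPM, the reads of a gene per 1000000 counted reads of the library, leaving out the ribosomal RNA repeat *Rn45s*. *Krt12* was at 31207, 29680, 28452, 28352 and 31135 RPM in the cornea libraries and at 313, 98.5, 481 and 226 RPM in the conjunctiva libraries. The groups lay far apart, at 29766 ± 1386 RPM (SD, n = 5) against 280 ± 161 RPM (SD, n = 4), a 106-fold ratio. On the log2(RPM + 0.5) scale the difference, cornea minus conjunctiva, was 6.95 ± 0.41 (SE), with an adjusted p of 2.1e-06 (limma, Benjamini-Hochberg over all genes tested). *Krt13* did not separate the tissues. It was at 2092, 2807, 2448, 3694 and 2229 RPM in the cornea and at 1725, 1577, 1291 and 3521 RPM in the conjunctiva. The ranges overlapped, and the log2 difference was 0.47 ± 0.29 (SE; adjusted p = 0.22). Without conjunctiva AL 5, the highest of its group, the difference was 0.77 ± 0.17 and was called (adjusted p = 0.0025). *Krt12* thus followed the labels in all 9 libraries, and *Krt13* could not serve as a conjunctival marker in them.

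Both genes lie on the minus strand of chromosome 11, *Krt12* at 99415664-99422593 and *Krt13* at 100117327-100121566 (GRCm38.p6). The 250 bases before the start of each are printed from RefSeq on that build, 5′ to 3′ on the strand of the gene, because these 2 genes are the ones used above to check the tissue. The *Krt12* start in that table lies inside the gene span given here, and the table holds more than 1 start for *Krt13*, of which the one at the end of the span was used. Capitals mark 3 motifs. These are CACCC on either strand, to which KLF factors such as KLF4 can bind, TATAAA on the strand of the gene, and TGANTCA on either strand, the core that AP-1 factors bind. No marked motifs overlapped.
*Krt12*, chr11:99422260-99422509: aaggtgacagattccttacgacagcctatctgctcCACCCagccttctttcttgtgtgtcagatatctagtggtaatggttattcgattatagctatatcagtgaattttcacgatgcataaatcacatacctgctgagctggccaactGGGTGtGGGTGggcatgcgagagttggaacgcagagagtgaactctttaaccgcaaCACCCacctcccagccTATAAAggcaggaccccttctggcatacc
*Krt13*, chr11:100121567-100121816: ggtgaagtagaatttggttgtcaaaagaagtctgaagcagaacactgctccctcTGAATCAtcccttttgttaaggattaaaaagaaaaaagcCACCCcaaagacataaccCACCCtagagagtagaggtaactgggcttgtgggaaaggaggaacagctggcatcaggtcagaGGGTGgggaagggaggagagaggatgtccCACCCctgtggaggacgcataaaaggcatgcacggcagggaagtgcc
Each stretch held 4 CACCC motifs. The *Krt12* stretch held 1 TATAAA, and the *Krt13* stretch held 1 TGANTCA and no TATAAA. Over all 32851 promoters of the same length, 52.0% held CACCC, 7.59% TATAAA and 6.75% TGANTCA. Of the promoters of tested genes 57.4% held CACCC, of those of genes higher in the cornea 62.2% did, and of those of genes higher in the conjunctiva 61.1% did. Matches are a description of the letters only.

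The libraries held 10353873 to 14433080 counted reads, *Rn45s* included, and depth did not separate the tissues (exact two-sided permutation test, p = 0.254). In the cornea 40.5% ± 2.70 of genes (SD, n = 5) had no read, against 35.3% ± 1.90 (SD, n = 4) in the conjunctiva (exact permutation p = 0.01587, the smallest that 5 against 4 libraries allow in a two-sided test). The share was 40.6% against 35.5% after every library was thinned to the same number of reads. Cornea AL 4 was highest at 45.1%, and without it the cornea mean was 39.4%. *Rn45s* took 11.3% of the counted reads in the cornea and 8.53% in the conjunctiva (exact permutation p = 0.01587). The 10 most abundant genes took 15.8% of the cornea reads and 11.6% of the conjunctiva reads (exact permutation p = 0.01587). Cornea AL 4 stood apart from the other cornea libraries in 63 genes of low level, which were under 1 RPM in it and over 5 RPM in each of the other cornea libraries. This choice fixes a gap within the cornea. The median of these 63 was between 8.79 and 10.3 RPM in the other cornea libraries and 0.263 RPM in cornea AL 4. In the conjunctiva it was 1.27 and 0.504 RPM in AL 1 and AL 5 but 10.6 and 7.75 RPM in AL 3 and AL 4. Of the 63, 4 were called in the test between tissues described next, against 39.8% of all tested genes. The gap that the choice fixes widens the spread within the cornea, so this count cannot tell whether these genes differ between tissues. Cornea AL 1 stood apart in 22 genes that were over 10 RPM and more than 20 times their level in every other cornea library, among them the secretory genes *Mucl2* and *Obp1a*. The part of either library in the results below is given beside the result it touches.

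Of 13658 genes with a mean of at least 1 RPM, 5435 (39.8%) were called, that is, had an adjusted p under 0.05 and a fold change over 1.5. The calls were uneven: 1199 genes (8.78%) were higher in the cornea and 4236 (31.0%) in the conjunctiva. Groups did not overlap for 5657 genes (41.4%), and 4723 (34.6%) were called and did not overlap. With a fold over 4, 204 genes (1.49%) were higher in the cornea and 1886 (13.8%) in the conjunctiva. In the cornea 182 of the genes higher in the conjunctiva had no read in any library, whereas 3 of the genes higher in the cornea had none in any conjunctiva library. Small differences depend on the scaling. The median log2 difference of all tested genes was -0.27 with RPM, -0.02 with trimmed means (TMM), -0.04 with median-of-ratios factors and 0.17 after quantile normalization, and the share of calls that were higher in the cornea was 22.1%, 36.6%, 35.2% and 56.2%. List medians below are to be read against the -0.27, and counts of called list members against the 8.78% and 31.0% of all tested genes. No gene called with RPM was called in the opposite direction under another of these scalings.

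**Figure D1:**
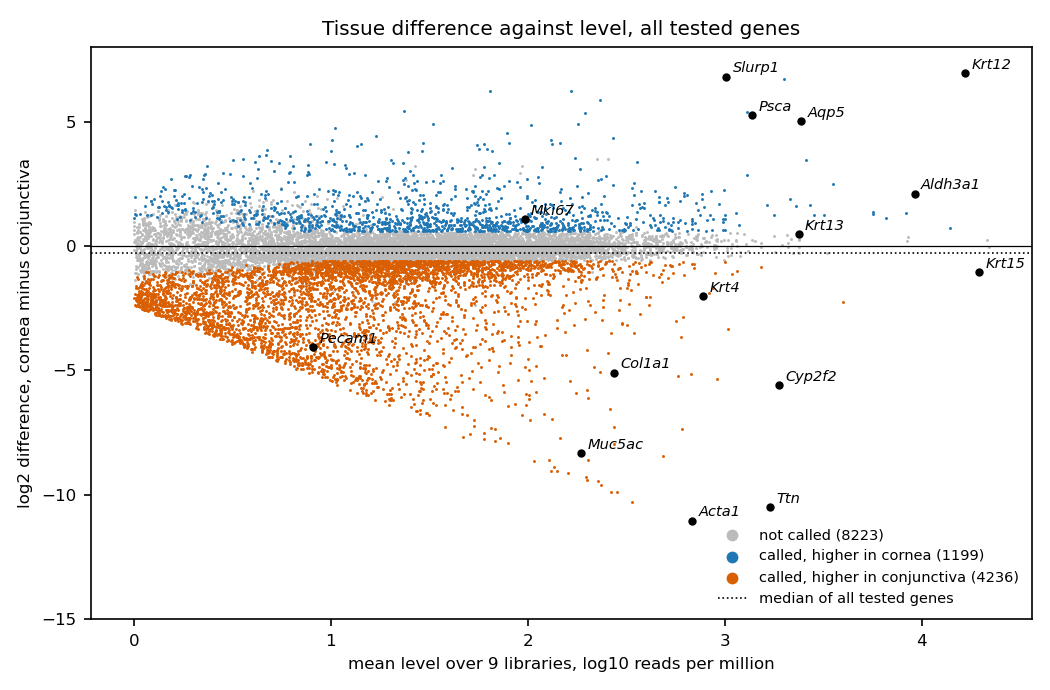
Log2 difference between the tissues (cornea minus conjunctiva, vertical axis) against the mean level over 9 libraries (log10 RPM, horizontal axis) for all 13658 tested genes. Blue points are the 1199 genes called higher in the cornea and orange points the 4236 called higher in the conjunctiva, and the dotted line is the median of all genes, -0.27.

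The genes with the most reads were largely the same in both tissues. Of the 10 genes with the most reads, 8 were shared. In the cornea *Krt12* alone took 2.98% of all reads, followed by the nuclear RNA *Malat1* (2.29%), the glutathione transferase *Gsto1* (2.17%), the calcium-binding *S100a6* (1.70%), *Aldh3a1* (1.41%), *Krt15* (1.32%) and *Krt5* (1.14%). In the conjunctiva *Krt15*, a keratin of basal cells, led with 2.75%, ahead of *Gsto1* (2.23%), *Malat1* (1.96%) and *S100a6* (1.03%). *Krt12* and *Aldh3a1* were among the 10 only in the cornea, and *Cbr2* and *Cyp2f2* only in the conjunctiva. *Cyp2f2*, a cytochrome P450 best known from airway club cells, was at 4903, 3322, 3863 and 4536 RPM in the conjunctiva and at 48.0, 79.2, 137, 86.6 and 99.2 RPM in the cornea. The conjunctiva was 46.1-fold above the cornea for this gene, with a log2 difference of -5.58 ± 0.27 (SE; adjusted p = 8e-08). *Cbr2*, a carbonyl reductase also known from lung, was at 7138 ± 421 RPM (SD, n = 4) against 1503 ± 159 RPM (SD, n = 5), 4.75-fold higher in the conjunctiva.

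All 9 tested genes of the corneal epithelium list were higher in the cornea, with a median log2 difference of 2.11, where 8.78% of all tested genes were higher. *Slurp1*, a secreted protein of the Ly6 family made by corneal epithelium, was at 1942, 1796, 1800, 1777 and 1781 RPM in the cornea and at 20.6, 4.58, 27.0 and 22.8 RPM in the conjunctiva. It was 97.1-fold higher in the cornea, and its log2 difference of 6.81 ± 0.47 (SE; adjusted p = 6.3e-06) was second in size to that of *Krt12*. *Ppp1r3c*, which directs protein phosphatase 1 to glycogen, followed with 4.34 ± 0.32 and an 18.6-fold ratio. The crystallin-type enzymes *Tkt* and *Aldh3a1* were 10.9-fold and 4.40-fold higher. *Aldh3a1* stood at 14102 ± 4302 RPM (SD, n = 5) in the cornea, with 21703 RPM in cornea AL 4 and 11058 to 12770 RPM in the other cornea libraries. The uroplakin *Upk1b* was 4.27-fold higher. *Pax6* differed least, at 705 ± 40.0 RPM (SD, n = 5) against 421 ± 19.6 RPM (SD, n = 4), a log2 difference of 0.74 ± 0.09 (adjusted p = 2.8e-06).

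The conjunctival epithelium list was mixed. Of its 9 tested genes, 6 were higher in the conjunctiva and 1 in the cornea. The simple-epithelium keratins led. *Krt18* was at 36.8, 51.9, 47.5 and 33.0 RPM in the conjunctiva and at 2.49, 1.39, 2.04, 2.72 and 0.299 RPM in the cornea, a log2 difference of -4.36 ± 0.36 (SE; adjusted p = 7.4e-08). Its partner *Krt8* differed by -3.42 ± 0.27, *Krt7* by -2.46 ± 0.20, *Krt19* by -2.07 ± 0.16 and *Krt4*, a keratin of moist stratified epithelia, by -2.03 ± 0.30. The membrane mucin *Muc1* was 2.99-fold higher in the conjunctiva. *Krt6a*, a keratin of wounded and rapidly renewed epithelia, ran the other way, with 7769 ± 997 RPM (SD, n = 5) in the cornea and 3065 ± 523 RPM (SD, n = 4) in the conjunctiva, although it was not called after quantile normalization (0.54 ± 0.14). Neither *Krt13* nor the membrane mucin *Muc4* passed the test. *Muc4* was at 1485 ± 154 and 1252 ± 76.3 RPM.

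Keratins of stratified epithelia split between the tissues. *Krt5*, the type II keratin of basal cells, was 2.50-fold higher in the cornea (11415 ± 652 against 4564 ± 316 RPM), but was under the fold limit after quantile normalization (0.42 ± 0.08), whereas its type I partner *Krt14* was 2.11-fold higher in the conjunctiva (1260 ± 196 against 597 ± 59.8 RPM). *Krt15* was at 28988, 30923, 24058 and 25982 RPM in the conjunctiva and at 12864, 14746, 14642, 11781 and 11831 RPM in the cornea. The 2 groups did not overlap, and the conjunctiva was 2.09-fold higher (log2 difference -1.06 ± 0.10; adjusted p = 3.4e-07). Over the keratin family, read as the symbol Krt and a number, 24 of 51 genes were tested. Of these, 4 were higher in the cornea and 10 in the conjunctiva, with a median of -0.03. After quantile normalization the counts were 8 and 7. *Krt78* joined *Krt12*, *Krt5* and *Krt75* on the corneal side. This reading of symbols leaves out *Krt6a* and *Krt6b*, which end in a letter and were both called higher in the cornea.

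**Figure D2:**
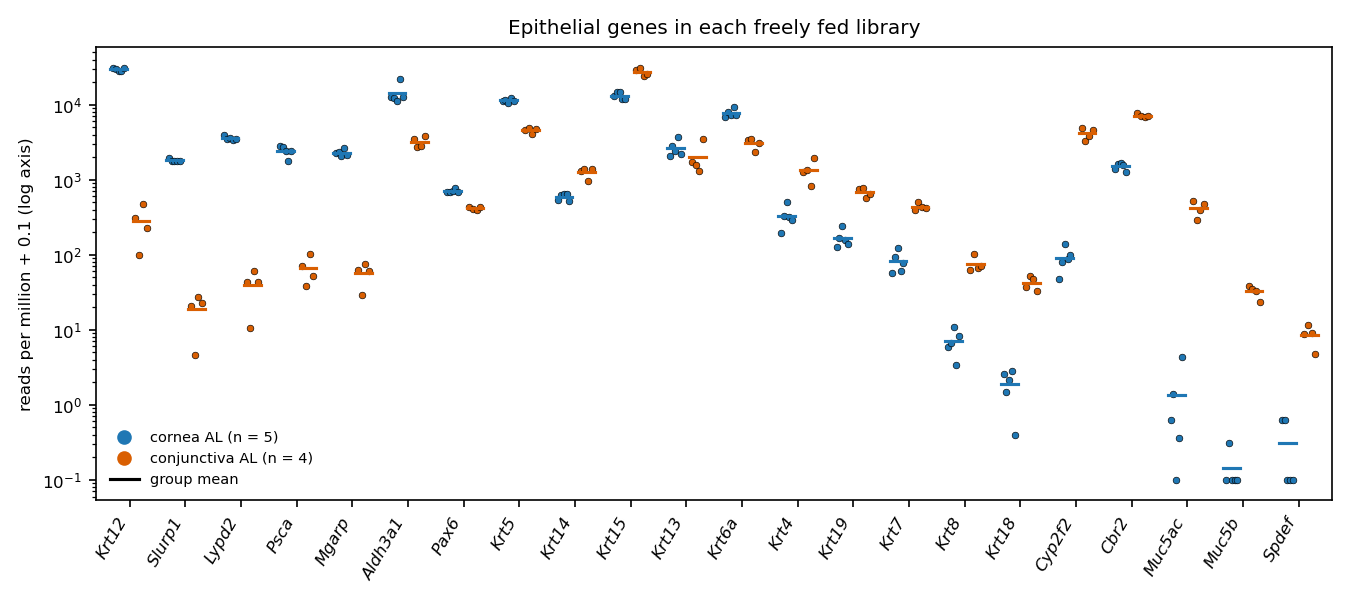
Levels of 22 epithelial genes in each AL library, as RPM + 0.1 on a log axis. Points are libraries, blue for cornea (n = 5) and orange for conjunctiva (n = 4), and bars are group means. The mean of *Krt12* is 29766 RPM in the cornea and 280 RPM in the conjunctiva, the *Krt13* groups overlap, and *Muc5b* and *Spdef* lie at or near 0 in the cornea.

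The low *Krt12* level of the conjunctiva libraries varied together with that of *Slurp1* and *Lypd2*, described next. Conjunctiva AL 3 was lowest and conjunctiva AL 4 highest for all 3 genes. Corneal cells at the cut edge of the excised piece were not measured, and their part in these reads was not tested.

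Among the 15 genes with the largest corneal excess, chosen by the size of the difference among called, non-overlapping genes with at least 20 RPM in the cornea, 4 belong to the Ly6 family of small, often membrane-anchored proteins: *Slurp1*, *Lypd2*, *Psca* and *Ly6g6c*. *Lypd2* was at 3969, 3458, 3590, 3337 and 3464 RPM in the cornea and at 43.9, 10.5, 60.4 and 43.6 RPM in the conjunctiva, a 90.0-fold ratio. *Psca* was at 2424 ± 404 RPM (SD, n = 5) against 65.8 ± 27.2 RPM (SD, n = 4), a log2 difference of 5.27 ± 0.26. *Slurp1*, *Lypd2* and *Psca* lie in one stretch of chromosome 15, with *Them6* between *Psca* and *Slurp1*. The stretch from *Psca* to *Ly6k* (74714839-74799968 on GRCm38.p6), chosen after the values were seen, holds 11 annotated genes, of which 9 were tested and 6 were higher in the cornea. Besides the 3 named, these were *Them6* (2.91 ± 0.26), *Slurp2* (2.80 ± 0.37) and *Lynx1* (2.87 ± 0.33), a Ly6 protein that binds nicotinic acetylcholine receptors. *Ly6d*, *Ly6g6g* and *Ly6k*, at mean levels of 0.942 to 2.98 RPM in both tissues, were not called. *Ly6d* passed without cornea AL 4 (1.30 ± 0.46; adjusted p = 0.025) or without conjunctiva AL 1 (1.46 ± 0.46; 0.018), and *Ly6k* without cornea AL 2 (-1.38 ± 0.50; 0.035). *Ly6d* also passed with TMM factors (1.24 ± 0.47; adjusted p = 0.041), with median-of-ratios factors (0.043) and after quantile normalization (2.21 ± 0.43; 0.00035). *Slurp2* and *Lynx1* share one locus, and how the counting divided reads between them is unknown.

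The other genes of this group have varied roles. *Dsg1a*, a desmoglein, was at 289, 269, 276, 349 and 289 RPM in the cornea and at 1.65, 3.16, 4.83 and 4.79 RPM in the conjunctiva, 81.7-fold higher in the cornea (log2 difference 6.25 ± 0.23; adjusted p = 1.5e-10). The mouse has near-identical copies of this gene, so the split of reads between *Dsg1a* and *Dsg1b* is uncertain. *Mgarp*, a mitochondrial protein, was at 2296 ± 224 RPM (SD, n = 5) against 56.9 ± 19.6 RPM (SD, n = 4). *Aqp5*, the water channel of secretory and corneal epithelia, was at 4826, 4629, 4083, 2993 and 4987 RPM against 116, 124, 144 and 138 RPM. *Aqp5* had the smallest SE of the group (5.02 ± 0.14; adjusted p = 1.5e-12). The serine protease *Tmprss11d* was 41.9-fold, *Fam83a* 59.3-fold and *Fam169a* 97.2-fold higher in the cornea. The cation channel gene *Trpm3* (24.0-fold), the calcium-binding *Necab1* (39.0-fold), the non-coding *E130218I03Rik* (27.8-fold) and *Ly6g6c* (26.0-fold) completed the group. *Pdyn*, which encodes the precursor of the dynorphin opioid peptides, was at 64.3, 34.5, 31.7, 34.9 and 42.9 RPM in the cornea and at 1.87, 0, 0.906 and 0 RPM in the conjunctiva. It was thus near the limit of detection in the conjunctiva and well above it in every cornea library.

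The 15 genes with the largest conjunctival excess were all genes of muscle: *Acta1*, *Ttn*, *Tnnc2*, *Myh4*, *Atp2a1*, *Mb*, *Myh11*, *Myh1*, *Tnnt3*, *Cox6a2*, *Ckm*, *Pvalb*, *Myh2*, *Xirp2* and *Myl1*. Except for *Myh11*, a smooth muscle myosin, they are known from striated muscle. *Acta1*, skeletal muscle actin, was at 2243, 479, 1863 and 1572 RPM in the conjunctiva and at 0 to 0.321 RPM in the cornea. *Atp2a1*, *Cox6a2*, *Ckm*, *Pvalb* and *Myh2* had no read in any cornea library. Against the 3 reads per library that a count of 0 allows, *Atp2a1* was at least 1959-fold, *Cox6a2* 1192-fold, *Ckm* 1049-fold, *Myh2* 1006-fold and *Pvalb* 979-fold higher in the conjunctiva. With voom weights in place of the intensity trend, *Atp2a1*, *Mb*, *Myh4*, *Myh1*, *Myh2*, *Cox6a2*, *Ckm*, *Tnnt3* and *Myl1* did not pass (adjusted p = 0.074 for *Tnnt3* to 0.17 for *Myl1*) at log2 differences of -11.30 to -13.21. All 18 genes of the skeletal muscle list were higher in the conjunctiva, with a median log2 difference of -8.97. Their summed level was 2844 to 15008 RPM in the conjunctiva and 28.6 to 46.5 RPM in the cornea, and it was lowest in conjunctiva AL 3. The labels name no muscle, and the share of muscle in the excised piece was not measured.

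Of 13 tested goblet cell genes, 11 were higher in the conjunctiva and 1 in the cornea, with a median of -3.68. The gel-forming mucin *Muc5ac* was at 515, 292, 397 and 469 RPM in the conjunctiva and at 0.519, 1.28, 0, 0.263 and 4.18 RPM in the cornea. The conjunctiva was 335-fold higher (log2 difference -8.34 ± 0.60; adjusted p = 3.6e-06). *Muc5b* was at 32.6 ± 6.45 RPM (SD, n = 4) in the conjunctiva and had 2 reads in all cornea libraries together. *Agr2*, which folds mucins, was 41.5-fold higher in the conjunctiva, the trefoil peptide gene *Tff1* 35.0-fold, and the goblet cell transcription factors *Foxa3* and *Spdef* 50.6-fold and 40.3-fold. *Scin* was the exception, at 103 ± 15.5 RPM in the cornea and 29.4 ± 4.89 RPM in the conjunctiva. *Bcas1* did not pass, and *Tff2*, *Tff3*, *Clca1* and *Zg16* were below the level tested. Of the mucins and membrane glycoproteins, 2 of 16 were higher in the cornea, *Muc15* (7.64-fold) and the galectin *Lgals3* (1.93-fold), and 6 in the conjunctiva. Over all tested genes these shares were 8.78% and 31.0%. In the mucosal defense list 11 of 20 genes were higher in the conjunctiva and none in the cornea. *Reg3g*, an antibacterial lectin, was 131-fold and the lysozyme *Lyz2* 66.5-fold higher there.

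Transcription factors of the ocular surface divided as well, with 8 of 50 higher in the cornea and 22 in the conjunctiva (median -0.51). With TMM factors the counts were 11 and 20. *Foxc2*, a forkhead factor of the periocular mesenchyme, was at 54.2, 43.4, 47.0 and 43.2 RPM in the conjunctiva and at 0.439 to 1.56 RPM in the cornea, and its log2 difference was -5.00 ± 0.27 (adjusted p = 6.6e-10). *Pitx1* (-4.53 ± 0.44), *Sox2* (-4.35 ± 0.36) and *Six2* (-4.29 ± 0.26) were also higher in the conjunctiva. On the corneal side *Dlx3* led, a homeobox factor of epidermal differentiation, at 5.19, 9.49, 4.18, 10.01 and 3.19 RPM in the cornea and with 3 reads in all conjunctiva libraries. *Dlx5* (2.09 ± 0.43), the chromatin organizer *Satb1* (1.75 ± 0.18), *Klf4* (1.65 ± 0.09), *Tfap2c* (0.91 ± 0.15), *Pax6* and *Ehf* were also higher, *Ehf* under the fold limit after quantile normalization (0.53). *Klf4*, required for a normal corneal epithelium in the mouse, was abundant at 2355 ± 186 RPM against 747 ± 30.6 RPM. The basal cell factor *Trp63* was at 71.1 ± 8.32 and 72.5 ± 11.7 RPM and was not called. *Klf5*, *Elf3*, *Grhl2*, *Meis2* and *Foxc1* were among the 20 that did not pass.

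**Figure D3:**
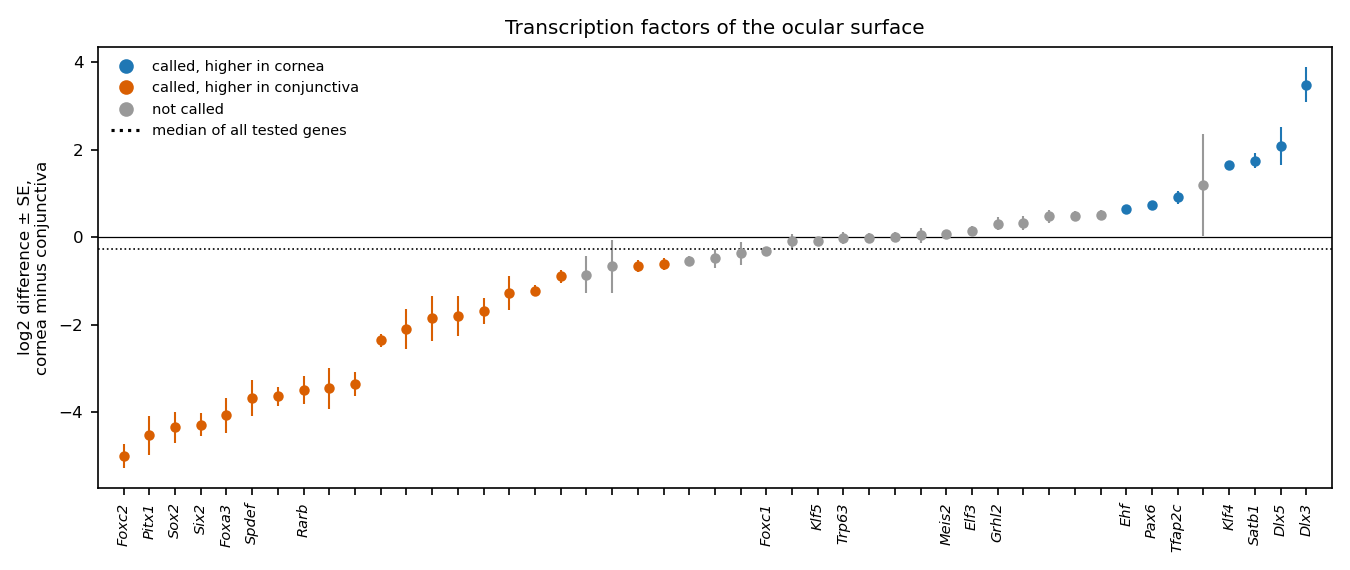
Log2 difference ± SE, cornea minus conjunctiva, for 47 of the 50 tested transcription factors of the ocular surface, in order of size, with names for those described in the text. Blue, orange and grey points are factors called higher in the cornea (7), called higher in the conjunctiva (20) and not called (20), and the dotted line is the median of all genes. *Foxc2* lies at -5.00 and *Dlx3* at 3.49.

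Genes of the stratified sheet itself lay on both sides. In the list shared by stratified epithelia 7 of 18 were higher in the cornea and 5 in the conjunctiva (median 0.25). In the list of desmosomes and adherens junctions, the contacts that hold such sheets together, 10 of 21 were higher in the cornea and 4 in the conjunctiva. Desmoplakin (*Dsp*) was at 3639, 3724, 3857, 4416 and 3824 RPM in the cornea and at 1315, 1432, 1029 and 1227 RPM in the conjunctiva, 3.11-fold higher in the cornea. *Dsg1a*, *Dsg1b* (18.2-fold), the plakophilins *Pkp3* (3.36-fold) and *Pkp1* (2.24-fold), *Dsc3* (3.34-fold) and *Dsg3* (2.89-fold) moved with it. *Dsg2*, a desmoglein of simple and basal epithelium, and *Cdh3* (P-cadherin) were 2.60-fold and 5.67-fold higher in the conjunctiva. E-cadherin (*Cdh1*) was not called. The hemidesmosomal collagen *Col17a1* was 4.07-fold higher in the cornea, whereas *Itga6* and *Itgb4*, the integrin of the same junction, did not pass, *Itga6* other than with TMM factors (0.60). Of 10 gap junction genes, 5 were higher in the cornea and 2 in the conjunctiva. *Gja1* (connexin 43) was 2.56-fold higher in the cornea and *Gjc1* 138-fold higher in the conjunctiva.

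Of 19 tight junction genes 4 were higher in the cornea, among them the scaffold genes *Cgn* and *Tjp1* and the receptor *Cxadr*, by log2 differences of 0.94, 0.83 and 0.80. The 6 higher in the conjunctiva were all claudins: *Cldn2* (-5.22 ± 0.46), *Cldn5* (-4.18 ± 0.40), *Cldn10* (-3.51 ± 0.53), *Cldn8* (-3.17 ± 0.38), *Cldn1* (-1.23 ± 0.23) and *Cldn3* (-0.88 ± 0.12). *Cldn5* is a claudin of blood vessels. Of 15 integrins, 2 were higher in the cornea (*Itga2* and *Itga3*) and 7 in the conjunctiva, led by *Itga8* with 2 cornea reads in all. Without cornea AL 4 the difference of *Itga3* was 0.55 ± 0.13, under the fold limit.

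Genes of the cornified envelope, the protein shell of flattened surface cells, were higher in the cornea for 6 of 17 tested and in the conjunctiva for 3. *Lce3a* was at 148, 286, 187, 261 and 232 RPM in the cornea and at 5.84, 2.65, 43.2 and 19.2 RPM in the conjunctiva. As a ratio of the highest to the lowest library the conjunctiva varied more than the cornea, and the log2 difference was 4.25 ± 0.75 (adjusted p = 0.002). The protease inhibitor *Spink5* was 17.7-fold, *Cnfn* 11.1-fold and *Krt6b* 2.14-fold higher in the cornea, of which *Krt6b* did not pass after quantile normalization (0.17 ± 0.11). *Tchh*, *Lor* and *Krt1* were higher in the conjunctiva at mean levels of 2.14 to 11.4 RPM, and *Lor* and *Krt1* did not pass after quantile normalization. *Flg2*, *Sprr1b* and *Krtdap* were below the level tested.

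**Figure D4:**
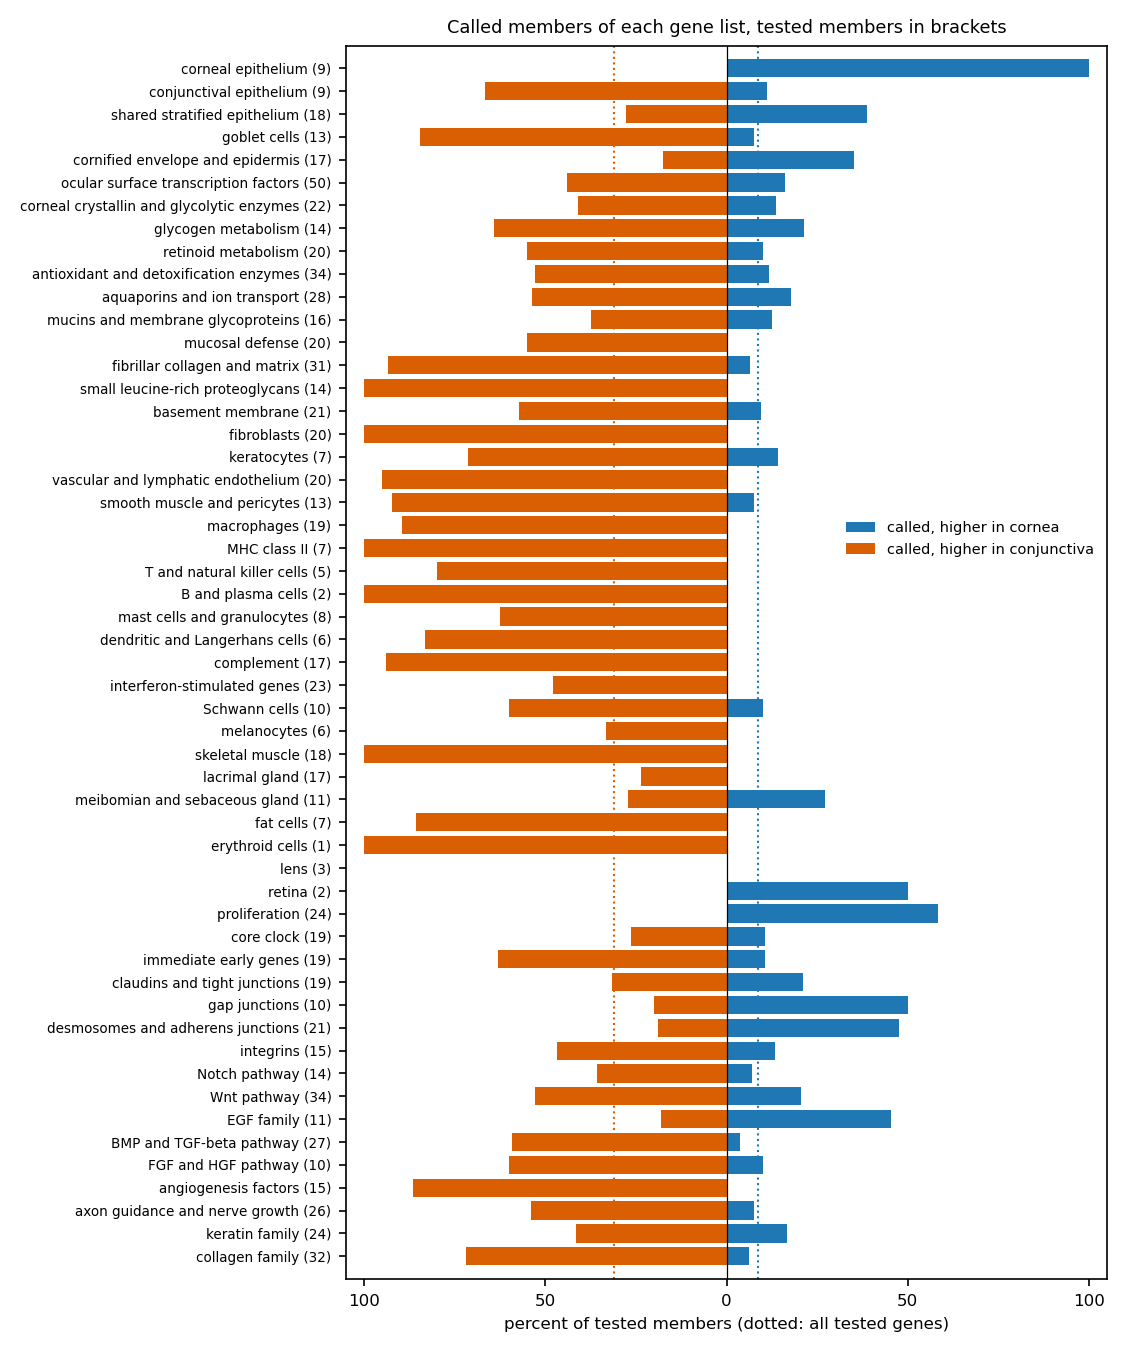
Percent of tested members called higher in the cornea (blue, to the right) and in the conjunctiva (orange, to the left) for 51 gene lists and the keratin and collagen families, with the number tested in brackets. Dotted lines give the same share of all tested genes, 8.78% and 31.0%. The corneal epithelium list lies wholly on the right, and the skeletal muscle, fibroblast and small leucine-rich proteoglycan lists wholly on the left.

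Genes of dividing cells were higher in the cornea. Of 24 proliferation genes, 14 were higher in the cornea and none in the conjunctiva (median 0.69). With TMM factors and after quantile normalization 17 were higher in the cornea. *Mki67*, the common marker of cycling cells, was at 132, 110, 125, 137 and 124 RPM in the cornea and at 47.5, 68.4, 55.0 and 68.1 RPM in the conjunctiva, 2.10-fold higher with no overlap (log2 difference 1.08 ± 0.13; adjusted p = 2.9e-06). *Cenpf* (1.18 ± 0.15), *Aurka* (1.14 ± 0.27), *Ube2c* (1.13 ± 0.16), *Ccnb1* (1.06 ± 0.21) and *Rrm2* (0.97 ± 0.18) behaved alike. The differences were small next to those of the tissue markers. The replication genes *Pcna*, *Mcm2*, *Mcm3* and *Mcm6* were among the 10 that did not pass. Marker genes of cells that are not epithelial were higher in the conjunctiva, by the lists below, and their part in the lower level was not tested.

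In the EGF family 5 of 11 genes were higher in the cornea and 2 in the conjunctiva. *Epgn* (epigen) was 12.8-fold and the neuregulin *Nrg1* 6.72-fold higher in the cornea at levels near 10 RPM, and *Hbegf*, an EGF receptor ligand of corneal repair, was at 566 ± 38.8 RPM against 266 ± 62.5 RPM. *Areg* and *Tgfa* were 2.40-fold and 1.90-fold higher in the conjunctiva, *Tgfa* not with TMM factors (-0.64 ± 0.27; adjusted p = 0.061), with median-of-ratios factors (0.053) or after quantile normalization (0.83). The receptor *Egfr* was not called. Without cornea AL 1 or without cornea AL 4 the counts were 4 and 3. In the Wnt pathway 7 of 34 were higher in the cornea and 18 in the conjunctiva. Secreted inhibitors lay on both sides. *Wif1* was at 61.0 ± 10.6 RPM in the conjunctiva and at 0.142 ± 0.219 RPM in the cornea, *Dkk2* was 21.6-fold higher in the conjunctiva and *Frzb* had no cornea read, whereas *Dkk3* was 3.12-fold higher in the cornea (192 ± 18.5 against 61.6 ± 5.79 RPM). *Wnt3a* and *Dkkl1* were higher in the cornea at mean levels of 2.39 and 3.90 RPM. Notch pathway genes were higher in the cornea for 1 of 14, *Notch3* (2.37-fold), and in the conjunctiva for 5, close to the 8.78% and 31.0% of all tested genes. In the BMP and TGF-beta pathway the corneal matrix protein gene *Tgfbi* was the 1 of 27 higher in the cornea (3.15-fold), and 16 were higher in the conjunctiva, led by the BMP inhibitor *Grem1*, which had no cornea read. For FGF and HGF genes the counts were 1 and 6 of 10. The receptor *Fgfr2*, the epithelial form of which answers to FGF7, was 1.59-fold higher in the cornea. Without conjunctiva AL 4 its difference was under the fold limit (0.56 ± 0.12). *Fgfr1* was 43.5-fold and *Fgf7* 50.0-fold higher in the conjunctiva.

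Metabolic genes did not follow a single direction. Among crystallin and glycolytic enzymes *Tkt*, *Aldh3a1* and *Aldh3b2* were higher in the cornea and 9 of 22 in the conjunctiva. With TMM factors the counts were 7 and 6, so no direction of the list holds. *Tkt*, an enzyme of the pentose phosphate pathway, was at 4756, 4490, 4635, 2972 and 4760 RPM in the cornea and at 308, 500, 491 and 290 RPM in the conjunctiva. *Aldoa*, *Hk2*, *Pfkm* and *Pfkp* were 3.27-fold, 3.75-fold, 5.61-fold and 7.78-fold higher in the conjunctiva. *Pfkm* is the muscle form of phosphofructokinase, and its level was lowest in conjunctiva AL 3 (26.0 RPM against 98.4 to 142 RPM), as were the muscle genes. *Gapdh* has many near-identical copies and its level is uncertain.

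Among glycogen genes, the liver and muscle forms of the phosphorylase lay on opposite sides. *Pygl*, the liver form of glycogen phosphorylase, was at 100, 99.8, 81.8, 98.8 and 93.0 RPM in the cornea and at 12.1, 8.76, 19.9 and 11.5 RPM in the conjunctiva. *Pygm*, the muscle form, was at 181, 26.0, 144 and 264 RPM in the conjunctiva and below 0.6 RPM in every cornea library, and was not called with voom weights (adjusted p = 0.17). Like the skeletal muscle list, *Pygm* was lowest in conjunctiva AL 3, and the part of muscle in its level was not tested. *Gyg*, the primer of glycogen, was 8.28-fold and *Ppp1r3c* 18.6-fold higher in the cornea, and *Gys1* was 6.34-fold higher in the conjunctiva. Over the list, 3 of 14 were higher in the cornea and 9 in the conjunctiva.

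Of 20 genes of retinoid metabolism 2 were higher in the cornea and 11 in the conjunctiva. *Cyp26b1*, which breaks retinoic acid down, was at 461, 397, 588, 559 and 598 RPM in the cornea and at 148, 120, 149 and 92.8 RPM in the conjunctiva (4.08-fold). The other was *Fabp5*, a fatty acid binding protein that also binds retinoic acid (4.42-fold). The retinol transporter gene *Stra6* was 9.28-fold, *Crabp1* 110-fold, *Crabp2* 10.4-fold and the receptor gene *Rarb* 13.3-fold higher in the conjunctiva, and 7 genes of the list were not called. The enzymes *Aldh1a1* and *Adh7* were not called, but were higher in the cornea with TMM factors (0.72 ± 0.11 and 0.77 ± 0.09). Among antioxidant and detoxification enzymes 4 of 34 were higher in the cornea and 18 in the conjunctiva. Extracellular *Sod3* and *Gpx3*, *Cyp2f2*, *Mgst1* and *Cyp4b1* were 116-fold, 61.0-fold, 46.1-fold, 23.6-fold and 20.2-fold higher in the conjunctiva, whereas *Gsta4* was at 2397 ± 241 RPM in the cornea against 1007 ± 153 RPM.

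Water and ion transport differed by gene, with 5 of 28 higher in the cornea and 15 in the conjunctiva. *Aqp5* was the corneal water channel, as given above, whereas *Aqp4* was at 64.7 ± 6.48 RPM in the conjunctiva and 0.407 ± 0.526 RPM in the cornea, and *Aqp1* was 28.9-fold higher in the conjunctiva. *Aqp3*, which also carries glycerol, was at 676 ± 162 and 864 ± 111 RPM and was not called. The carbonic anhydrase gene *Car12* was at 459, 352, 401 and 553 RPM against 5.91 to 10.4 RPM in the cornea (58.2-fold). *Cftr* was at 17.9 ± 4.72 RPM with 2 cornea reads in all, and the chloride channel gene *Ano1* was 27.5-fold and the sodium pump subunit gene *Atp1b1* 29.5-fold higher. The sodium channel subunit gene *Scnn1a* (1.70-fold) and the cotransporter gene *Slc12a2* (1.56-fold) were higher in the cornea, the latter not without conjunctiva AL 3 (0.57 ± 0.10). *Car6* was called higher in the cornea, but 139 RPM of cornea AL 1 stood against 7.64 to 13.4 RPM in the other cornea libraries. The call of *Car6* was lost with voom weights (adjusted p = 0.21), without conjunctiva AL 1 (0.056), without conjunctiva AL 5 (0.060) and with the replicate number as a block (0.077).

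Stromal genes were higher in the conjunctiva nearly throughout. All 20 tested fibroblast genes (median -5.59) and all 14 small leucine-rich proteoglycans (median -4.64) were higher there, as were 29 of 31 genes of fibrillar collagen and matrix (median -4.97). *Col3a1* was at 601, 474, 602 and 780 RPM in the conjunctiva and at 4.25, 5.33, 8.47, 0.878 and 2.29 RPM in the cornea, 145-fold higher in the conjunctiva (log2 difference -7.26 ± 0.50; adjusted p = 3.5e-06). Decorin (*Dcn*) was 39.1-fold, *Clec3b* 74.7-fold and *Cxcl12* 162-fold higher. *Fn1* and *Col12a1* were the exceptions, 1.75-fold and 2.28-fold higher in the cornea, although *Col12a1* was not called without conjunctiva AL 5 (0.80 ± 0.32; adjusted p = 0.055). In the collagen family 2 of 32 tested were higher in the cornea (*Col17a1* and *Col12a1*) and 23 in the conjunctiva. Of 21 basement membrane genes, 2 were higher in the cornea and 12 in the conjunctiva. *Lamb1* was 5.75-fold higher in the cornea, and *Lama4*, a laminin chain of vessels, 29.7-fold higher in the conjunctiva. Keratocytes are the cells of the corneal stroma, whereas the cornea libraries came from scraped epithelium. Of 7 tested genes of the keratocyte list 5 were higher in the conjunctiva, among them *Lum* (28.8-fold) and *Dcn*, which is also in the fibroblast list. The 1 higher in the cornea was *Aldh3a1*, which the epithelium also makes. Other members of the keratocyte list were below the level tested.

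Genes of vessels and immune cells were higher in the conjunctiva too. Of 20 endothelial genes 19 were higher in the conjunctiva (median -4.10), with a summed level of 321 to 457 RPM against 8.43 to 35.2 RPM in the cornea. The VEGF receptor gene *Kdr* was at 88.2, 88.2, 114 and 84.7 RPM against 0 to 4.37 RPM. The exception, *Mmrn2*, was at 17.6 to 28.2 RPM against 0.439 to 10.2 RPM (adjusted p = 0.053), with the lowest value in cornea AL 4. *Mmrn2* was called without cornea AL 4 (-1.19 ± 0.22; adjusted p = 0.00021) and without cornea AL 2 (-2.06 ± 0.71; 0.044), and also in 5 of the other settings tried. Of 13 genes of smooth muscle and pericytes 12 were higher in the conjunctiva, led by *Myh11* and *Cnn1*, and *Notch3* was higher in the cornea. Of 15 angiogenesis factors 13 were higher in the conjunctiva and none in the cornea. *Vegfa* was at 48.9, 36.2, 41.6 and 51.6 RPM in the conjunctiva and at 1.45 to 4.07 RPM in the cornea. For macrophages 17 of 19, for MHC class II 7 of 7 and for complement 16 of 17 were higher in the conjunctiva. The antigen-presenting gene *H2-Aa* was 21.5-fold, *Cd74* 18.4-fold, the macrophage gene *Pf4* 94.4-fold and complement *C1s1* 145-fold higher. The macrophage marker *Cd68* was among the members of its list that were not called.

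Genes of other leukocytes were few above the level tested. Of the 5 T and natural killer cell genes tested 4 were higher in the conjunctiva, at means under 7 RPM, and *Cd3d*, *Cd3e* and *Cd3g* were below it. Both tested genes of B and plasma cells (*Jchain* and *Pou2af1*), 5 of 8 of mast cells and granulocytes and 5 of 6 of dendritic and Langerhans cells were higher in the conjunctiva. Of the dendritic and Langerhans cell genes called, 1 is also in the list shared by stratified epithelia. *Cd207*, the Langerhans cell marker, and other members of that cell list were below the level tested. *Jchain* did not pass after quantile normalization (-1.73 ± 0.91; adjusted p = 0.13) or with voom weights (0.075), and with TMM factors 1 gene of B and plasma cells was tested. Of the mast cell genes, *Cpa3* was at 38.6, 16.9, 49.0 and 37.1 RPM in the conjunctiva and at 0 to 1.29 RPM in the cornea. Of 23 interferon-stimulated genes 11 were higher in the conjunctiva and none in the cornea. After quantile normalization the counts were 6 and 4.

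Of 10 Schwann cell genes 6 were higher in the conjunctiva, and the 1 higher in the cornea was *Mal*, at 3855 ± 271 RPM against 1612 ± 60.7 RPM, which epithelia also make. Of 26 genes of axon guidance and nerve growth 2 were higher in the cornea and 14 in the conjunctiva. *Artn* (artemin), a ligand for sensory neurons, was 2.41-fold higher in the cornea, and *Sema3e* (72.6-fold) and *Sema3a* (14.7-fold) were higher in the conjunctiva. For fat cells 6 of 7 were higher in the conjunctiva (*Fabp4* 259-fold, not called with voom weights, adjusted p = 0.079). Of 6 melanocyte genes 2, *Mitf* and *Edn3*, were higher in the conjunctiva, whereas *Tyr*, *Tyrp1* and *Mlana* were below the level tested. After quantile normalization 3 were higher in the cornea. The 1 tested erythroid gene, *Alas2*, was 9.02-fold higher in the conjunctiva. Of 3 lens genes none was called, of 2 retina genes 1 (*Sag*) was higher in the cornea at 2.68 ± 2.11 RPM, and the lens gene *Cryaa* was below the level tested.

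**Figure D5:**
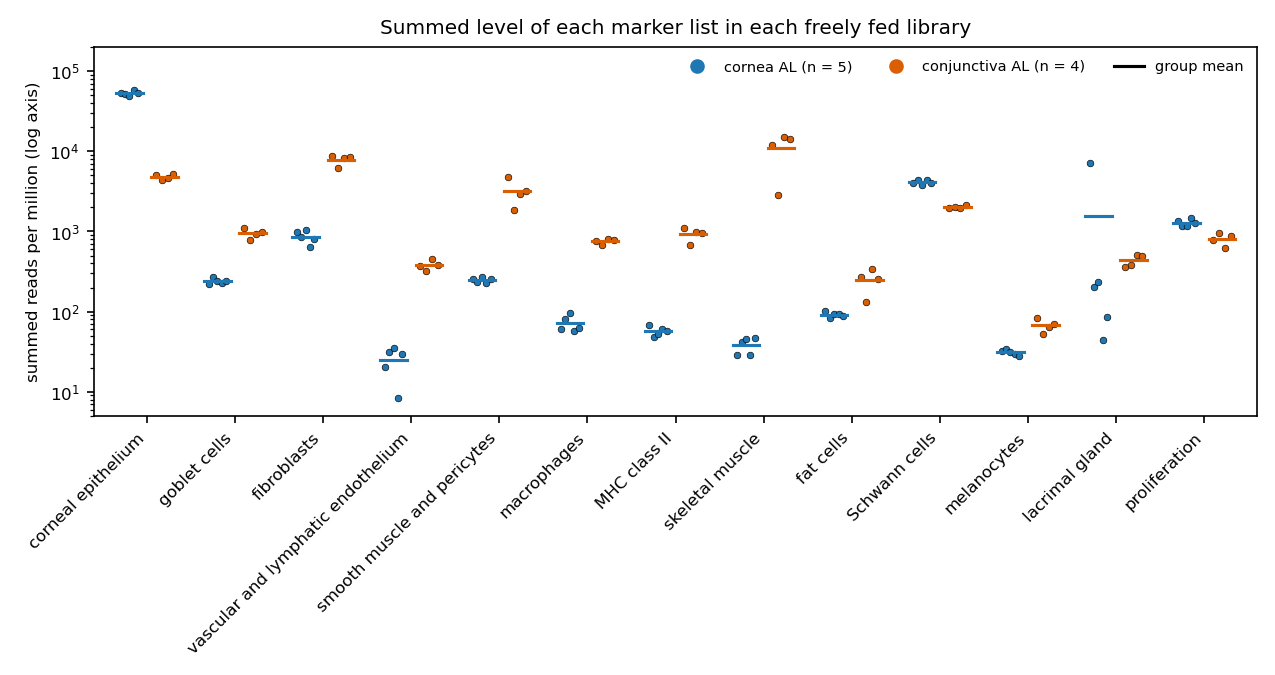
Summed level of the genes of 13 lists in each AL library, as RPM on a log axis. Points are libraries, blue for cornea (n = 5) and orange for conjunctiva (n = 4), and bars are group means. Conjunctiva AL 3 is the lowest for skeletal muscle (2844 RPM), and cornea AL 1 stands at 7195 RPM for the lacrimal gland list, above all other libraries.

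Lacrimal gland genes did not separate the tissues. Of 17 tested genes 4 were higher in the conjunctiva and none in the cornea, so that 23.5% were called, against 39.8% of all tested genes. Their summed level was 364 to 505 RPM in the conjunctiva, and in the cornea 7195 RPM in AL 1 and 44.0 to 231 RPM in the other libraries. Cornea AL 1 held 2164 RPM of *Mucl2* and 1927 RPM of the odorant-binding protein gene *Obp1a*. *Esp6* was called higher in the conjunctiva although cornea AL 1, at 143 RPM, lay within the range of the conjunctiva libraries, and its call was lost without conjunctiva AL 5 (adjusted p = 0.051) and with the replicate number as a block (0.11). Without cornea AL 1 11 genes in place of 17 reached the level tested, the counts were 5 and 0, and the median went from 0.19 to -0.59. Of 11 genes of meibomian and sebaceous glands 3 were higher in the cornea and 3 in the conjunctiva.

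Clock and immediate early genes respond to the time and manner of collection, which the labels do not give. Of 19 clock genes 2 were higher in the cornea, *Hlf* (3.33-fold) and *Rora* (2.28-fold), and 5 in the conjunctiva, among them *Per1* (3.02-fold) and *Per2* (2.77-fold). Thus 36.8% of the clock genes were called, close to the 39.8% of all tested genes. *Per1* was not called after quantile normalization (-0.84 ± 0.42; adjusted p = 0.11). With TMM factors the counts were 5 and 5, and after quantile normalization 8 and 3. Of 19 immediate early genes 2 were higher in the cornea and 12 in the conjunctiva, with a median of -1.55. *Nr4a1* was at 58.7, 51.4, 19.1 and 19.2 RPM in the conjunctiva and at 0 to 2.36 RPM in the cornea, and *Atf3* was 5.73-fold higher in the conjunctiva. *Junb* and *Ier2* did not pass. Without conjunctiva AL 3 the counts were 2 and 8.

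The tissue difference was finally compared between the diets in all 19 libraries. No gene passed (0 of 13658, 0.0%, limma interaction with a smallest adjusted p of 0.065), although 1070 (7.83%) had an unadjusted p under 0.05. *Aqp5* came nearest. In the cornea it was at 4304 ± 808 RPM (SD, n = 5) in AL and 2820 ± 428 RPM (SD, n = 5) in CR mice, and in the conjunctiva at 130 ± 12.6 RPM (SD, n = 4) and 187 ± 24.5 RPM (SD, n = 5). The tissue difference of *Aqp5* was larger in AL than in CR mice by 1.11 ± 0.19 on the log2 scale. With TMM factors 3 genes passed, *Aqp5*, *Cpt1a* and *Gm16938*, each at an adjusted p of 0.030. *Krt12* and *Krt13* had adjusted p-values of 0.87 and 0.98 for this difference.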

How the data were processed

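RNA from scraped corneal epithelium and excised conjunctiva was sequenced by the authors as single 75-base reads. Per the study's methods reads were trimmed with cutadapt, aligned with STAR, counted with HTSeq and scaled by relative log expression in ROSALIND. The deposited values are log2 of the normalised count plus 1, scaled by the authors in each tissue apart. The labels name GRCm39 and a stranded kit, the methods mm10 and another kit, and whether counting used strand is not given in the sources used here.

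Columns were mapped to libraries by title, and 0 columns were left unmapped. Each value was undone to 2 to its power less 1 and divided by the smallest value above 0 of its column. This gave whole reads for 100% of values (tolerance 0.0001). *Rn45s* was dropped, 24546 genes were joined on symbol and identifier, and reads were scaled to 1000000 per library (RPM). Genes with a mean of at least 1 RPM were tested with limma 3.58.1 (R 4.3.3, statmod 1.5.0) on log2(RPM + 0.5) with intensity trend and robust empirical Bayes, and Benjamini-Hochberg adjustment. A called gene had an adjusted p under 0.05 and a fold over 1.5. Folds in the text are ratios of mean RPM. Log2 differences understate the change of low genes because of the pseudocount. Library measures were compared by exact permutation tests. The code was tested on simulated data. Python 3.11.15 was used with numpy 2.4.6, pandas 2.3.3, scipy 1.17.1 and matplotlib 3.10.9.

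The labels do not say that replicates were separate animals, whereas the study's figure legends give the numbers of each group as mice. The p-values measure the spread between these libraries, and what part of it is technical was not measured. Intervals and floors cover counting error only.

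Named genes were, in each direction, the 15 with the largest difference among called genes that did not overlap and had at least 20 RPM in the higher tissue, *Krt12* and *Krt13*, members of 51 gene lists and of the keratin and collagen families in order of difference, and the 10 genes with the most reads in each tissue. The members and lists were chosen with earlier results of these data known. Alternatives were other pseudocounts (0.1 and 2), no filter or a mean of 5 RPM, TMM, median-of-ratios and quantile scaling, *Rn45s* kept in the total, voom, array weights, all 19 libraries in 1 fit, the replicate number as a block, other fold limits and each library left out in turn. Some members of the lists are counted but not reported here by name.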

Additional observations from a re-analysis of the deposited data

Results flagged for a closer look

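A library stood apart from the rest of its group, by a gap large against the whole range of the group (Dixon's 95% limit), in 52 of 444 tests of the genes named above. Chance alone flags about 1 in 20 groups, and a group in which a single library has reads is always flagged. Levels are in RPM.

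Cornea AL 4 was apart most often. It was the highest cornea library for the crystallin-type enzyme *Aldh3a1* (21703, against 11058 to 12770 in the other cornea libraries), for the desmosome genes *Dsp* (4416), *Dsg1a* (349) and *Dsc3* (707), for the hemidesmosome genes *Col17a1* (1319), *Itga6* (838) and *Itgb4* (289), for *Itga3* (114) and *Itga2* (11.7), for the transcription factors *Klf4* (2681), *Pax6* (775) and *Hlf* (1295), and for *Fam169a* (140), *Necab1* (77.5), *Pfkm* (23.7), *Fgf7* (1.23) and *Tnnc2* (0.0878). It was the lowest for *Tkt* (2972).

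Cornea AL 1 was the highest for the secretory genes *Mucl2* (2164), *Obp1a* (1927), *Esp6* (143) and *Car6* (139), for *Slurp1* (1942), *Jchain* (2.90) and *Fabp4* (0.519), and for *Mb* (0.207). Cornea AL 2 was the highest for *Cd68* (23.4), *Cnfn* (18.0), *Sag* (6.29), *Foxa3* (0.853), *Myh4* (0.320), *Cftr*, *Muc5b* and *Myh1* (each 0.213) and *Sox2* (0.107), and the lowest for *Notch3* (118). Cornea AL 3 was the highest for *Rarb* (4.18), *Crabp2* (1.71) and *Tnnt3* (0.750), and cornea AL 5 for *Epgn* (21.4).

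In the conjunctiva, AL 4 was the highest for *Kdr* (114), *Aqp1* (92.7), *Mmrn2* (28.2), *Nrg1* (3.73) and *Slurp2* (0.101) and the lowest for *Agr2* (94.0). AL 3 was the highest for *Gja1* (122), *Areg* (42.8) and *Fabp5* (52.3) and the lowest for *Lama4* (27.1). AL 5 was the lowest for *Upk1b* (203), and AL 1 was the highest for *Wnt3a* (0.449).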

How the results depend on the processing

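The number of genes called kept within 1.5 times of 5435 under every alternative except the limit of fold over 4, which left 2090 (204 higher in the cornea and 1886 in the conjunctiva). Without 1 library at a time it was 5104 to 5683, of which 1132 to 1302 were higher in the cornea, and 3965 to 4381 genes were higher in the conjunctiva. The split between the tissues moved with the scaling. The genes higher in the cornea numbered 1892 with TMM factors, 1810 with median-of-ratios factors and 3246 after quantile normalization, and those higher in the conjunctiva numbered 3271, 3333 and 2527. *Krt12* differed by 6.52 to 7.28 without 1 library at a time, and *Krt13* by 0.29 to 0.77, with the only call without conjunctiva AL 5. *S100a6* reversed to -0.0725 after quantile normalization, which is within its error. The replicate number in the title as a block left 5035 calls (1068 and 3967) and cost *Car6* and *Esp6* theirs. The study's methods say that more than 1 tissue was taken from each mouse, but neither they nor the labels say that a number marks an animal. Same-numbered libraries deviated with correlations of -0.14, 0.11, -0.37 and -0.16, and whether they share a mouse is not known. Of 221 named genes, 36 changed their call under an alternative other than the fold limit, 13 of them losing it with voom. The difference between diets gave 3 calls with TMM factors. The limit that a count of 0 allows, 3 reads, was 0.225 to 0.321 RPM, so that lower levels say only that reads were few. The causes of these changes were not tested.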

Other observations

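Low reads of conjunctival genes were spread unevenly over the cornea libraries. Of 4054 genes called higher in the conjunctiva that had any cornea read, the highest cornea value was in AL 3 for 27.6%, in AL 4 for 23.8% and in AL 1 for 13.02%. AL 1 was entered as the lowest for 30.3%. Each gene was given 1 lowest library even where several had no read, so this share does not single out AL 1. Among 1196 genes called higher in the cornea with any conjunctiva read, the highest conjunctiva value was in AL 3 for 31.2%.

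Olfactory receptor genes, which neither tissue is known for, gave low sums that did not separate the tissues. The 1127 genes summed to 40.6, 41.4, 31.7, 13.4 and 35.2 RPM in the cornea libraries and to 19.3, 67.9, 48.2 and 11.3 RPM in the conjunctiva libraries. Vomeronasal receptor genes (331) summed to 6.33, 7.04, 10.6, 1.49 and 11.95 RPM and to 2.70, 12.1, 6.64 and 2.18 RPM. Cornea AL 4 and conjunctiva AL 1 and AL 5 were the low libraries in both families. Conjunctiva AL 1 and AL 5 were also low for the 63 genes, which had been chosen as low in cornea AL 4.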
